A study of Mus musculus with 2 samples.

Results

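Cajal-Retzius cells were followed in single-cell RNA sequencing of the dentate gyrus of newborn mice at postnatal day 2. A cell was taken as Cajal-Retzius where it held 1 or more UMIs (unique molecular identifiers, each standing for 1 captured transcript) of at least 4 of the 6 genes Reln, Trp73, Lhx1, Lhx5, Ndnf and Nhlh2, and at most 2 UMIs of Gad1 and Gad2 together. Barcodes entered where they had 500 genes and 1000 UMIs or more and no more than 10% of UMIs from mitochondrial genes. The rule found 166 cells among 4996 such barcodes: 134 of 3029 from control mice and 32 of 1967 from the knockout.

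Cajal-Retzius cells are among the first neurons of the cortex. They arise at the edges of the cortical sheet, such as the cortical hem, septum and thalamic eminence, migrate below the pia and line the hippocampal fissure next to the forming dentate gyrus. They release glutamate, secrete reelin, which guides the positioning of later neurons, and mostly die after birth, later in the hippocampus than in the neocortex.

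The control library came from littermates that the labels call WT, without giving their alleles, and the other from hGFAP-Cre;Kdm6bF/F mice, whose floxed Kdm6b, a demethylase of lysine 27 of histone H3, is deleted by Cre under a human GFAP promoter. That promoter is active in radial glia of the dorsal forebrain from mid-gestation, so deletion is expected in those cells and their descendants rather than in every cell. Each library pooled dentate gyri of 2 animals, dissociated with papain and captured by droplets with 3' end counting, and there was 1 library per genotype. All comparisons below are therefore between 2 libraries, with no test between genotypes, and the intervals (95%) cover counting error only.

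The libraries differed in sex and depth before any comparison. Among knockout members, 32 of 32 held Xist and none a Y-linked UMI. Among control members 44 held Xist only, 62 Y-linked UMIs only, 10 both and 18 neither. Members had a median of 9137 UMIs and 3372 genes in the control library and 11721.5 UMIs and 3932 genes in the knockout library. The libraries shared 9 barcodes, none of them (0) from members, and no doublets were removed.

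The 6 genes split the kept cells into separate groups. In the control library 2167 cells held none of the 6 genes, 649 held 1, 75 held 2 and 4 held 3, whereas 16 held 4, 55 held 5 and 63 held 6. The knockout library gave 1486, 390, 55 and 4 cells below the threshold and 4, 12 and 16 cells above it. Few cells lay at the border: of the 8 cells with 3 genes, 7 had 1 to 5 Reln UMIs at depths from 2186 to 60319, and 1 control cell of 6547 UMIs had 25 Reln, 7 Ndnf and 5 Nhlh2 UMIs. The 16 control cells with 4 genes held 10 to 46 Reln UMIs and the 4 knockout cells 9 to 26. The limit on Gad1 and Gad2 removed 0 cells with 4 or more of the genes.

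Genes outside the rule were also compared with the other kept cells. Of 20 other genes known from Cajal-Retzius cells, 19 were among the genes counted and 15 had at least 20 UMIs in members. Ngfr was at 0 in all members. Of the 15, 11 were at least 4-fold above the other kept cells in both libraries, beside 245 of 7763 genes (3.16%) at that minimum. The 11 were Calb2, Ebf3, Tbr1, Nxph3, Cacna2d2, Car10, Slc17a6, Eya2, Nr2f2, Thsd7b and Tmem163. The cells were chosen by the 6 genes, and the 15 genes entered by their UMIs in these cells. These values therefore describe the cells and test nothing. Markers of GABAergic neurons were nearly absent, with 7 of 10 at 0 UMIs in all members, among them Gad2, Slc32a1 and Lhx6, and Gad1 at 1 UMI in 1 knockout cell.

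Fewer kept cells of the knockout library were Cajal-Retzius cells. They made up 4.42% of the control library (3.72 to 5.22%) and 1.63% of the knockout library (1.12 to 2.29%), a ratio of 0.368 (0.242 to 0.544). With every cell thinned at random to 2000 UMIs, so that depth was equal, the rule found 72 of 2815 (2.56%) and 16 of 1808 (0.885%), a ratio of 0.346 (0.188 to 0.601). Dissociation and recovery cannot be told apart from the number of cells in the tissue, and a share also moves with the other cell types.

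Other cell groups moved both ways. GABAergic cells (at least 3 UMIs of Gad1 and Gad2) were 4.42% of control and 6.56% of knockout cells. Endothelial cells (at least 3 of 6 markers) were 8.06% and 11.5%, and fibroblasts (at least 3 of 8 markers), which share the pial surface with Cajal-Retzius cells, 3.07% and 4.98%. Excitatory neurons (at least 3 of 6 pyramidal genes) were 29.3% and 24.3%. Per 100 GABAergic cells there were 100 Cajal-Retzius cells in the control library and 24.8 in the knockout library. Per 100 fibroblasts there were 144 and 32.7, and per 100 excitatory neurons 15.1 and 6.69.

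**Figure D1:**
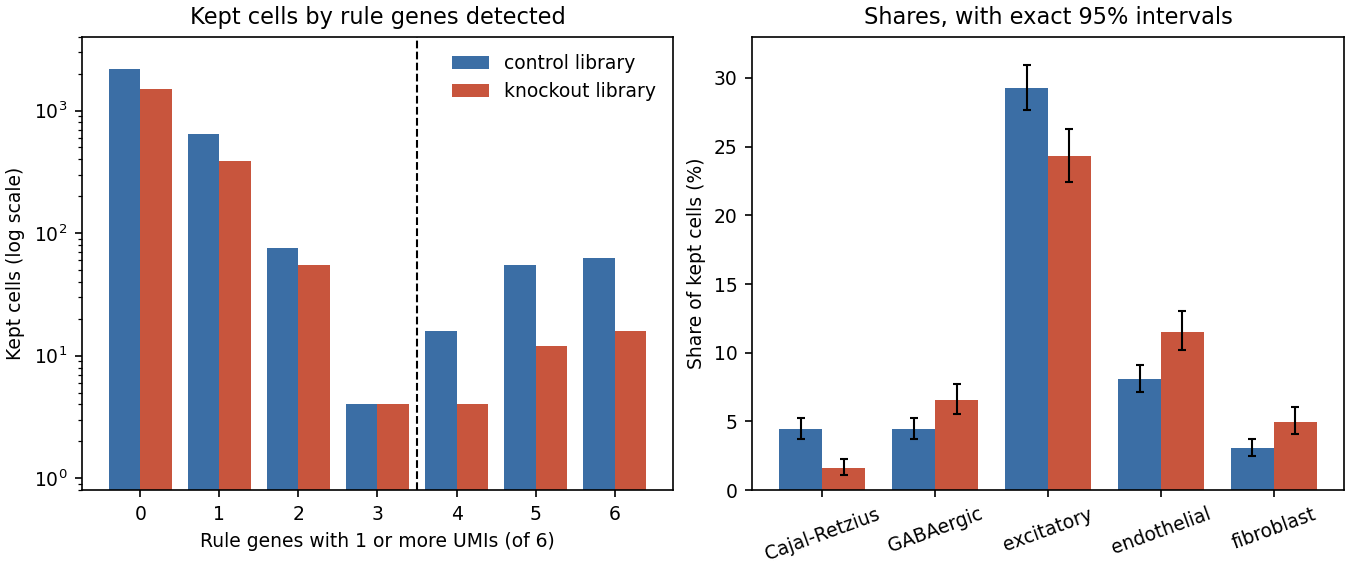
Left, kept cells of the control (blue) and knockout (red) libraries by how many of the 6 rule genes they held, on a log axis, with the threshold dashed; few cells held 3 genes. Right, shares of kept cells in percent for 5 cell groups with exact binomial 95% intervals; the Cajal-Retzius share was 4.42% in the control and 1.63% in the knockout library.

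The share differed within the control library as well. Control cells with Y-linked UMIs and no Xist were Cajal-Retzius in 6.19% of cases (4.78 to 7.86%), and control cells with Xist only in 3.30% (2.41 to 4.41%). Restricting both libraries to the Xist-only cells gave 3.30% and 1.73%, a ratio of 0.524 (0.321 to 0.845). The direction was the same, and the difference was smaller than over all cells. The control library pooled 2 animals and held cells of either sex, so each of these control subsets came from 1 animal. Animal and sex cannot be told apart there, and the spread between animals of 1 sex is not known.

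The cells that were recovered carried the rule genes at similar levels in both libraries. Reln, the secreted glycoprotein reelin (chr5:21884454-22344702, minus strand, GRCm38), had 2 to 66 UMIs per control member with a median of 29, and 4 to 75 per knockout member with a median of 42. Summed over members and scaled to a total of 1000000 UMIs (CPM), Reln was at 3166 and 3574, in 134 of 134 and 32 of 32 members. Dividing knockout by control after adding 0.5 UMI to either sum gave a log2 ratio of 0.18 (exact conditional interval of the ratio 1.06 to 1.20). Ndnf, a secreted neurotrophic factor, was at 1328 and 1448 CPM in every member of both libraries. Nhlh2, a basic helix-loop-helix factor, was at 1124 and 1182 CPM, also in every member.

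The other rule genes were detected in most members, not all. Lhx5, a LIM homeodomain factor of the cortical hem, was at 243 and 272 CPM in 116 and 29 members. Trp73, the p53 relative needed for Cajal-Retzius survival, was at 154 and 173 CPM in 104 and 23 members. Lhx1, the close relative of Lhx5, was at 151 and 181 CPM in 95 and 24 members. These log2 ratios for the 6 genes ran from 0.07 for Nhlh2 to 0.27 for Lhx1, and the groups overlapped for each of them in the plot of the rule genes by cell. Since the same genes chose the cells, a cell that had lost them would not have been counted.

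**Figure D2:**
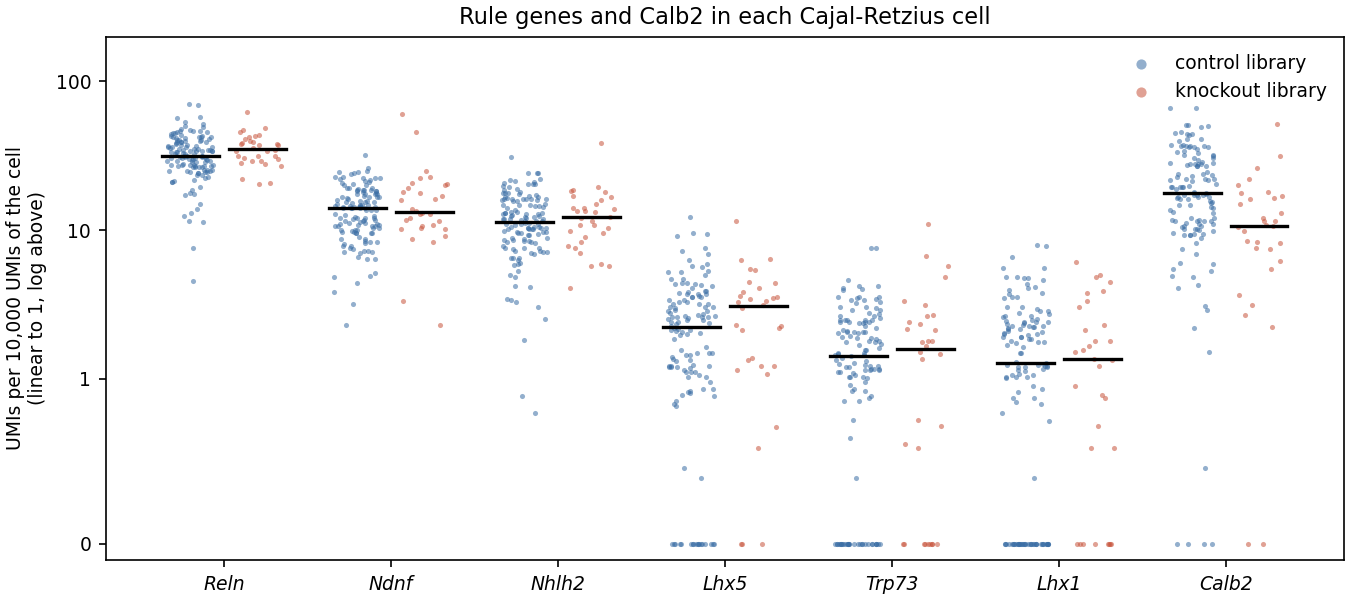
UMIs of the 6 rule genes and Calb2 scaled to the depth of each Cajal-Retzius cell (linear to 1, log above), 134 control cells (blue) and 32 knockout cells (red), with the median as a bar. The libraries overlap for each gene, and the knockout median of Calb2 is below the control median, with a log2 ratio of -0.56 over the summed cells.

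Genes outside the rule filled most of the top of the ranking against the other cells. Of 5024 genes with at least 50 UMIs in members, 190 (3.78%) were at least 4-fold above the other kept cells in both libraries and 42 (0.836%) at least 4-fold below. The 20 genes with the highest lower bound of that ratio were Lhx1, Lhx1os, Mab21l1, Lhx5, Barhl2, Ripk4, Samd3, Reln, Gdf5, Ndnf, Ebf3, Mgl2, Cacna2d2, Kcnj5, Tmem163, Mrap2, Cd274, Clec10a, Penk and Nhlh2. All 20 were also at least 4-fold above GABAergic cells and above excitatory neurons in both libraries.

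The list held the transcription factors Barhl2 and Ebf3, which are outside the rule. Barhl2, a homeodomain factor of the developing diencephalon, was at 89.2 CPM in control members and 0.10 in the other control cells, and at 79.4 and 0.08 in the knockout library. Ebf3, a helix-loop-helix factor of Cajal-Retzius cells, was at 65.7 and 93.5 CPM in members and 0.26 and 0.15 in other cells. Mab21l1, a homologue of a worm cell-fate gene, was at 86.9 CPM in control members and 59.5 in knockout members, against 0.10 in the other control cells. In each of these genes both libraries' members stood far above all other cells.

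Lhx1 and its neighbour Lhx1os were the leading pair. Lhx1os, a long non-coding RNA transcribed away from Lhx1, was at 264 CPM in control and 357 in knockout members, in 120 and 29 cells, and at 0.35 and 0.04 in other cells. The 125 bases between the start sites that RefSeq gives them (GRCm38.p6, chr11:84525535-84525659, plus strand) are shown because both genes start at its ends. The upstream bases of Reln (chr5:22344706-22344955, minus strand) are shown for the gene that defines the cells. Capitals mark its match to the E-box CANNTG, a general motif of basic helix-loop-helix factors, and which factor reads it was not tested.
Lhx1 to Lhx1os: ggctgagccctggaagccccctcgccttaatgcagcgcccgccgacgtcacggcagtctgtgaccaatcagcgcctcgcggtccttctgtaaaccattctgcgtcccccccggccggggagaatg
Reln: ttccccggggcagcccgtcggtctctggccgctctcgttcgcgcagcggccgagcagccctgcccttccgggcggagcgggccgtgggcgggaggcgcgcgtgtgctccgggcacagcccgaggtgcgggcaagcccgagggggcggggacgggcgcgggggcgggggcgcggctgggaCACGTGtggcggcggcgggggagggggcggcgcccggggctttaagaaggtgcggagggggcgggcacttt
Promoters of 250 bases before to 50 after the start were found for 13 of the 20 leading genes. The core of the EBF site, CCCNNGGG, was in 3 of the 13 (Reln, Ebf3 and Lhx1os) and in 13.7% of all 32851 promoters. The E-box CANNTG was in 9 of the 13 and in 72.3% of all promoters, and the homeodomain motif TAATTA in 1 (Tmem163) and in 5.29%. The longer EBF site, which holds the core, was in 0 of the 13 and in 0.904% of all. Every motif is its own reverse complement, so 1 search covered both strands. The 125 bases between Lhx1 and Lhx1os held none of the 4 motifs, and the counting of sense and antisense reads is not given in the sources used here, so reads near the shared start region cannot be assigned with certainty.

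**Figure D3:**
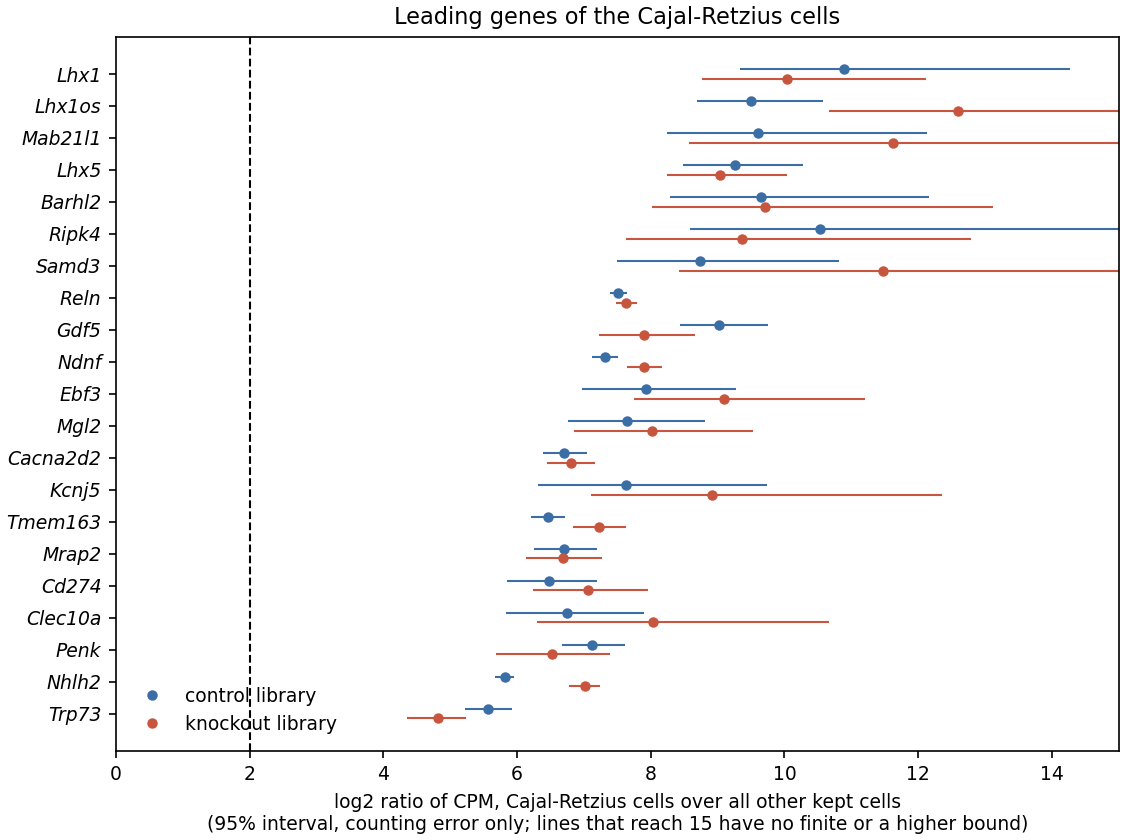
Log2 ratio of CPM in Cajal-Retzius cells over all other kept cells for the 20 leading genes and Trp73, in the control (blue) and knockout (red) libraries, with 95% intervals for counting error; the dashed line is a 4-fold ratio. The genes stand right of the line in both libraries.

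Several leading genes are better known outside neurons. Cd274, which encodes the immune ligand PD-L1, was at 72.0 CPM in control and 99.2 in knockout members, in 62 and 21 cells, and at 0.80 and 0.74 in other cells. Mgl2 and Clec10a, a pair of galactose-binding C-type lectin genes 18646 bases apart on chromosome 11 and best known from macrophages and dendritic cells, had 85 and 26 UMIs and 50 and 12 UMIs in control and knockout members. As near copies, they may share reads. The defining microglial genes Csf1r, Cx3cr1 and C1qa were at 0 in all members, and the 8 microglial markers together at 16.4 and 11.3 CPM, with at most 3 UMIs in a member. Ripk4, a kinase known from epidermis, was at 70.4 and 62.4 CPM against 0.03 and 0.08 in other cells.

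Of 23 genes of secreted factors with at least 20 UMIs, 12 were at least 4-fold above other cells in both libraries, beside 3.16% of all 7763 genes. They were Reln and Ndnf, which chose the cells, and Nxph3, Nxph4, Wnt7b, Rspo3, Pdgfa, Pnoc, Penk, Nppc, C1ql1 and C1ql2. Cxcl12, the chemokine that the meninges also release and that holds Cajal-Retzius cells at the surface, was at 2556 CPM in control and 2327 in knockout members, a log2 ratio of -0.13, and at 46.3 and 42.5 in other cells. It was detected in 133 of 134 and in 32 of 32 members. Its receptor Cxcr4 was at 48.5 and 31.2 CPM (ratio interval 0.31 to 1.23), in 50 and 9 cells, and Ackr3, the second receptor, was at 0 in all members. Pnoc, the precursor of nociceptin, was at 392 and 306 CPM, and Pdgfa, a growth factor for oligodendrocyte precursors, at 332 and 332.

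Of 27 genes of regions where Cajal-Retzius cells arise, 13 had at least 20 UMIs and 6 were at least 4-fold above other cells in both libraries, beside 3.16% of all genes: Zic1, Emx2, Nr2f2, Barhl2, Dmrta2 and Tbr1. Nr2f2, a nuclear receptor of caudal cortex, was at 408 and 507 CPM, and Emx2, a homeodomain factor of the medial pallium, at 372 and 386. Zic1, a zinc finger factor of the septum and hem, was at 140 and 198 CPM in 84 and 25 cells. Dbx1, a progenitor factor of the pallial-subpallial border and septum, and the hem Wnts Wnt3a and Wnt8b were at 0 in all members.

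The transmitter genes were those of glutamate. Slc17a6, the vesicular glutamate transporter VGLUT2, was at 255 and 278 CPM in 122 and 28 members. In other cells it was at 10.9 CPM in the control and 0.93 in the knockout library, a log2 ratio of -3.53 outside these cells beside 0.13 within them. Slc17a7, which encodes VGLUT1, was at 24.3 CPM in the control, with 28 of its 31 UMIs in 4 cells described below. Of 15 GABA and glycine release genes, 9 were at 0 and 1 reached 20 UMIs, the GABA transaminase Abat, at 124 and 139 CPM.

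Subunits of GABA, glycine and glutamate receptors were detected, with 1 of 15 measured 1.5-fold higher in the knockout and 4 lower (2 higher and 2 lower of 14 without the 4 cells). Over all 7763 genes with at least 20 UMIs, 10.6% were higher and 10.8% lower. Gabra2, an alpha subunit of the GABA-A receptor, was at 374 CPM in control and 238 in knockout members (log2 -0.64, ratio interval 0.50 to 0.80, and -0.47 with each cell weighted alike, under 1.5-fold). Glrb, the beta subunit of the glycine receptor, was at 113 and 93.5 CPM, and Gria4, an AMPA receptor subunit, at 85.3 and 108, the receptor gene of 15 measured that was 4-fold above other cells. The chloride exporter Slc12a5 (KCC2), which makes GABA inhibitory as neurons mature, had 5 UMIs in control and 1 in knockout members, 3.91 and 2.83 CPM against 27.1 and 26.7 in other cells. The chloride importer Slc12a2 (NKCC1) had 11 and 4 UMIs, 8.61 and 11.3 CPM. Car10, a carbonic anhydrase relative, was at 294 and 295 CPM.

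Among 28 voltage-gated channel genes, 6 were at least 4-fold above other cells in both libraries, beside 3.16% of all genes: Cacna2d1, Cacna2d2, Hcn4, Kcnb2, Kcnh7 and Kcnip4. Cacna2d1 and Cacna2d2, auxiliary subunits of calcium channels, were at 596 and 646 and at 317 and 471 CPM. Kcnh7, a potassium channel of the ERG family, was at 263 and 289 CPM. The pacemaker channel Hcn4 had 41 and 21 UMIs, 32.1 and 59.5 CPM. Robo2, a Slit receptor, was the axon guidance gene of 23 measured that passed 4-fold, at 322 and 386 CPM.

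Genes of reelin reception stood below the other cells. Of 16 reelin pathway genes with at least 20 UMIs, 1 was 4-fold above other cells in both libraries, and this was Reln, which chose the cells. The receptors Vldlr and Lrp8 were at 14.1 and 14.2 CPM and at 30.5 and 51.0 CPM, below other cells in both libraries (Vldlr log2 -1.15 and -0.95, Lrp8 -1.45 and -0.95). Dab1, the adaptor that relays the signal, had 13 UMIs in control and 2 in knockout members, 10.2 and 5.67 CPM against 93.3 and 90.3 in other cells.

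Comparing the libraries gene by gene, 308 of 5024 genes (6.13%) were at least 1.5-fold higher in knockout members and 331 (6.59%) at least 1.5-fold lower, and the median log2 ratio was 0.01. Of the 20 leading genes, 1 (Kcnj5, log2 0.71) was 1.5-fold higher and 2 (Penk and Gdf5) 1.5-fold lower, shares near those of all genes. Among the 12 genes furthest below were Nrgn, Neurod6, Fam183b, S100a10, Enc1, Fxyd7, Lpl, Epha4, Sox11, Epha5 and Rnf182, most of them known from pyramidal neurons.

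Most of that list came from 4 control members. They held 93, 71, 70 and 19 UMIs of 10 pyramidal markers at depths of 43840, 20403, 25332 and 15630 UMIs, and the other 130 at most 3. They also held 20, 23, 29 and 52 Reln UMIs. No knockout member held over 2. The 4 cells carried more than 50% of the control UMIs of 11 of the 12 genes, among them 76 of 85 for Nrgn, a calmodulin-binding protein of dendritic spines, and 109 of 125 for Neurod6. Without them the interval of the ratio stayed below 1 for 2 of the 12 genes, Fam183b among them. Lpl and Epha5 then had log2 ratios of 0.35 and 0.33, and Enc1 had 3 and 1 UMIs left, too few for a ratio. The counts without the 4 cells were 284 higher and 315 lower of 4804 genes. Scrublet, a doublet caller, placed 3 of the 4 among the 73 highest scores of the 3029 control barcodes. It called too few doublets to have worked. All 4 cells held Xist, at 63, 10, 10 and 9 UMIs. Leaving them out took the Y-linked genes Eif2s3y from 67 to 65 control UMIs and Ddx3y from 60 to 53. Among the 4 were thus cells with both Xist and Y-linked UMIs, as in 10 control members in all. Whether those barcodes held 2 cells was not tested.

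Without the 4 cells, which were set aside after their values were seen, the 12 genes furthest below included Fam183b, Penk, Rgs4, Qpct, Fxyd6, Copz1, Gdf5, Rsf1, Nsun2 and Smu1. All 12 were lower in knockout members than in the control members with Xist only and in those with Y-linked UMIs only. Both subsets belong to the control members by which the genes were ranked, so this follows largely from the choice and tests nothing. One of the 12, Penk, was at least 1.5-fold lower in the other cells as well (log2 -0.74).

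Fam183b, a gene known from ciliated cells (chr11:58792797-58801960, minus strand, GRCm38), had 64 UMIs in 41 of 134 control members and 0 in 32 knockout members. Control members held 0 to 5 UMIs. Its level was 50.1 CPM in the control and, taking 3 UMIs as the most that a count of 0 allows, up to 8.50 in the knockout library, at least 5.89-fold lower. With 3 of the 6 rule genes taken as enough, which gave 138 and 35 cells, the log2 ratio was -1.75 in place of -5.15, a smaller difference in the same direction. In all other cells it was at 33.9 and 41.1 CPM, a log2 ratio of 0.28. As a share of cells, 30.6% of control members had a UMI and 0% of knockout members (up to 9.38%). At 2000 UMIs the shares were 8.96% and 0% (up to 10%), a difference not detectable at that depth. Endothelial cells had it in 3.28% and 1.32% at median depths of 23217.5 and 21049 UMIs.

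Penk and Gdf5 were lower as well, and both were among the 20 leading genes. Penk, the enkephalin precursor, had 268 UMIs in 66 of 134 control members, with 0 to 20 per cell, and 29 UMIs in 6 of 32 knockout members, with 0 to 9 per cell, so most knockout members and many control members had none. It was at 210 and 82.2 CPM (log2 -1.33, ratio interval 0.26 to 0.58), and found in 1.42% and 0.982% of other cells. Gdf5, a bone morphogenetic protein family ligand, had 0 to 12 UMIs per control member with a median of 3 and 0 to 10 per knockout member with a median of 1.5, which overlapped. It was at 374 and 215 CPM (log2 -0.79, ratio interval 0.45 to 0.74) against 0.70 and 0.89 in other cells. Thinned to 2000 UMIs in a random draw of members alone, Gdf5 had a log2 ratio of -0.39. In a separate draw of all kept cells, Gdf5 had a mean of 0.746 UMIs per control and 0.40 per knockout member, a wider gap. In the draw of all kept cells, Penk was found in 22.4% and 6.67% of members and Gdf5 in 48.5% and 26.7%. Endothelial cells were at 0.866% and 0% for Penk and 0% and 0% for Gdf5.

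Calb2, the calcium-binding protein calretinin and a classical Cajal-Retzius marker, was lower too, though by less than 1.5-fold over all members. Control members held 0 to 72 UMIs with a median of 17 and knockout members 0 to 78 with a median of 10.5. The level was 2028 and 1375 CPM, a difference of -0.56 in log2 (ratio interval 0.61 to 0.75), and the other cells, at 155 and 98.8 CPM, gave -0.65. Rgs4, a regulator of G-protein signalling, was at 656 and 383 CPM (log2 -0.77), with a log2 ratio of 0.29 in other cells.

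The 12 genes furthest above in knockout members included Zic4, Gpr83, Qtrt1, Hddc3, Trbc2, Tenm4, Lmcd1, Ndrg2, Chchd10 and Rbm26. All 12 remained at least 1.5-fold higher without the 4 control cells. That says little, since the genes were chosen by this ratio and 130 of 134 control members stayed. Zic4, a partner of Zic1 (chr9:91362413-91389348, plus strand, GRCm38), had 32 UMIs in 27 of 134 control members, at most 3 per cell, and 30 UMIs in 20 of 32 knockout members, at most 3 per cell. The log2 ratio was 1.77 (ratio interval 1.99 to 5.77), while other cells had 7.08 and 6.85 CPM (-0.05). At 2000 UMIs, 8.96% of control (4.71 to 15.1%) and 23.3% of knockout members (9.93 to 42.3%) had a Zic4 UMI, and 3.46% and 4.29% of endothelial cells. Of the other Zic genes, Zic1 had a log2 ratio of 0.51, Zic2 of 0.02 and Zic5 of -0.50.

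Of these 12 genes, some were higher in the other cells too. Hddc3, a nucleotide hydrolase gene, was at 21.1 and 65.2 CPM in members (log2 1.63) and at 24.2 and 65.3 in other cells (1.43). In Xist-only cells its ratio in members was 0.54 on the log2 scale, under 1.5-fold. Control members with Xist only held it at 44.7 CPM and those with Y-linked UMIs only at 6.96. Tenm4, a teneurin of neuronal wiring, was at 90.0 and 204 CPM (log2 1.19) and in other cells at 38.7 and 66.0 (0.77). Gpr83, a G-protein-coupled receptor, had 29 and 27 UMIs in 13 and 7 cells, up to 8 and 11 in a single cell, so its level rested on few cells. Ndrg2, best known from astrocytes, was at 33.6 and 87.9 CPM in members (log2 1.39) and at 208 and 147 in other cells (-0.50).

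**Figure D4:**
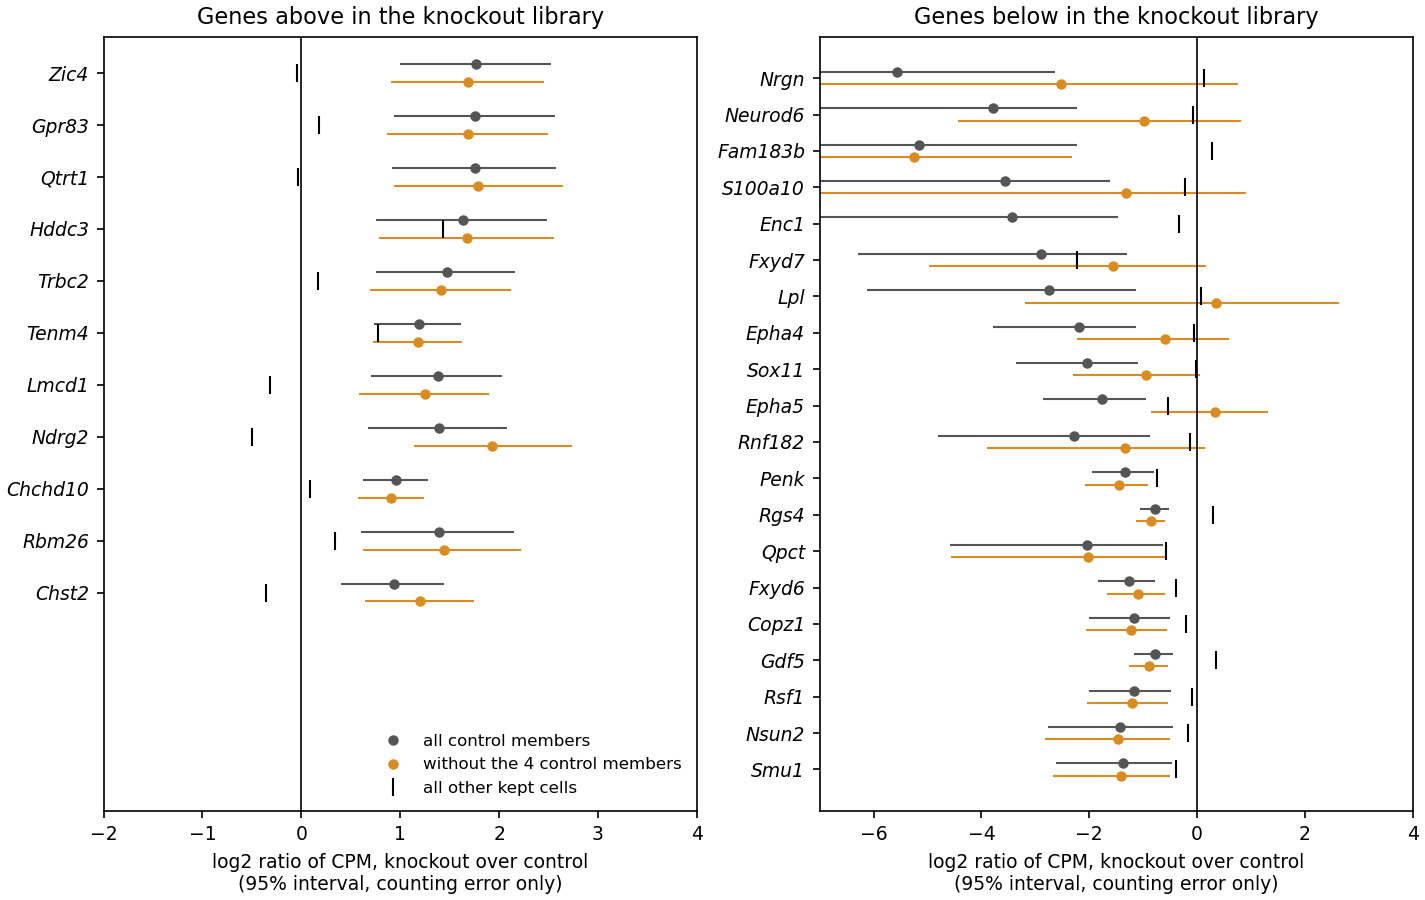
Log2 ratio of CPM, knockout over control, for genes named in the text among those furthest above (left) and below (right), over all members (grey) and without the 4 control members with pyramidal markers (orange), with 95% intervals for counting error, and in all other kept cells (black tick). On the right, Nrgn, Neurod6, Lpl and Epha5 move toward or past 0 without the 4 cells, and Fam183b, Penk and Gdf5 do not; Nrgn and Fam183b had 0 knockout UMIs, so their points depend on the 0.5 UMI added.

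Gene groups were counted over genes with at least 20 UMIs and carry no test. At that minimum, 826 of 7763 genes (10.6%) were 1.5-fold higher and 836 (10.8%) lower. None (0) of the 6 rule genes was 1.5-fold higher or lower. Of 23 secreted factors 6 were higher (Nxph3, Nxph4, Fstl5, Lgi2, C1ql1 and C1ql2) and 2 lower (Penk and Fgf13), with a median log2 of 0.08 beside 0.01 over all genes. Without the 4 cells, 4 of 20 were higher and 1 lower (Penk), and Fgf13, a growth factor relative, went from a log2 ratio of -1.36 to 1.04. C1ql1, a complement-related synaptic organiser, was at 70.4 and 139 CPM (log2 0.99, ratio interval 1.36 to 2.82). In a random draw of members to 2000 UMIs its log2 ratio was -0.05. C1ql2, its relative known from granule neurons and named here for its value, had 23 UMIs in each library, a log2 ratio of 1.86, while other cells had -1.42.

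Of 28 voltage-gated channels 3 were higher (Scn2b and Hcn4 among them) and 1 lower, and of 23 axon guidance genes 6 were higher and 4 lower. Without the 4 cells, 6 of 21 guidance genes were higher and 1 lower (Epha4, log2 -0.59). Of 16 reelin pathway genes 3 were higher (Lrp8, Itgb1 and Src) and 0 lower. None of the 3 was 1.5-fold higher in a random draw of members to 2000 UMIs. Itgb1, an integrin beta subunit, was at 86.1 and 136 CPM (log2 0.67), but in that draw its log2 ratio was -0.87. Of 29 mature neuron genes 0 were higher and 7 lower, and without the 4 cells 1 of 23 was lower. Of 23 young neuron genes 0 were higher and 2 lower (Dcx and Sox11), with a median log2 of -0.11. Without the 4 cells 1 of 22 was lower (Sox11), and Dcx, a microtubule protein of migrating neurons, went from a log2 ratio of -1.82 to 0.15.

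Genes of cell death and survival did not move together. Of 23 measured, 2 were higher (Bak1 and Bcl2l2) and 2 lower (Trp53 and Bbc3), with a median log2 of 0.03. Trp53, the gene of p53, had a log2 ratio of -0.60 over all UMIs and 0.47 in a random draw to 2000 UMIs a cell. Diablo, a mitochondrial activator of caspases, was at 752 and 904 CPM and, besides Trp73, the gene of this group that was 4-fold above other cells in both libraries. Bax, which opens the mitochondrial membrane and drives Cajal-Retzius cell death in the neocortex, was at 328 and 312 CPM. Bbc3, a p53 target that promotes death, was at 106 and 59.5 CPM (log2 -0.81, ratio interval 0.34 to 0.89). Of 19 glycolysis and hypoxia genes 0 were higher and 3 lower, and of 23 cholesterol synthesis genes 2 were higher and 0 lower.

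Immediate early genes, which respond to activity and to dissociation, differed in both directions. Of 18 measured 4 were higher and 4 lower, beside 10.6% and 10.8% of all 7763 genes. Fos was at 1075 and 989 CPM (log2 -0.12), Jun at 134 and 227 (0.77) and Junb at 429 and 309 (-0.47). In other cells Jun was at 667 and 645 CPM.

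Kdm6b, the targeted gene, had UMIs in both libraries. It had 74 UMIs in 50 of 134 control members and 17 UMIs in 13 of 32 knockout members, 57.9 and 48.2 CPM (log2 -0.23, ratio interval 0.46 to 1.42). In other cells it was at 57.9 and 57.6 CPM. The reads lie at the 3' end of transcripts, and which exons are floxed is not given in the sources used here, so these UMIs need not show the deleted part. Of 12 H3K27 enzyme genes measured, 3 were higher (Kdm6a, Suz12 and Mtf2) and 1 lower (Phf1), beside 10.6% and 10.8% of all 7763 genes. In a random draw to 2000 UMIs a cell Phf1 had a log2 ratio of 0.28. In members with at most 2 UMIs from each of 4 other cell types' marker lists, Suz12 was at 0.56, under 1.5-fold. Kdm6a, the X-linked relative of Kdm6b, had 16 and 9 UMIs, 12.5 and 25.5 CPM (ratio interval 0.79 to 4.90), and Ezh2, a methyltransferase of the same lysine, 30.5 and 22.7 CPM. Control members with Xist only held Kdm6a at 14.1 CPM and those with Y-linked UMIs only at 10.4, with 6 UMIs in either subset.

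Prm1 is a sperm protamine gene whose 3' end is part of many Cre transgenes. It had 0 UMIs in 134 control members and 2 UMIs in 2 of 32 knockout members (6.25%), against 35.6% of the other knockout cells. At 2000 UMIs the shares were 0 of 30 members (up to 10%), 25.9% of the other knockout cells, 5.05% of excitatory neurons, 3.97% of GABAergic cells and 3.81% of endothelial cells. Median depths before thinning were 11721.5 UMIs in Cajal-Retzius and 21049 in endothelial cells. With 30 cells, a share of 0 could not be told apart from that of endothelial cells, and a share above it was not detected. Prm1 UMIs show transcripts at the time of collection only, and no value here shows whether Kdm6b had been deleted in a given cell.

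**Figure D5:**
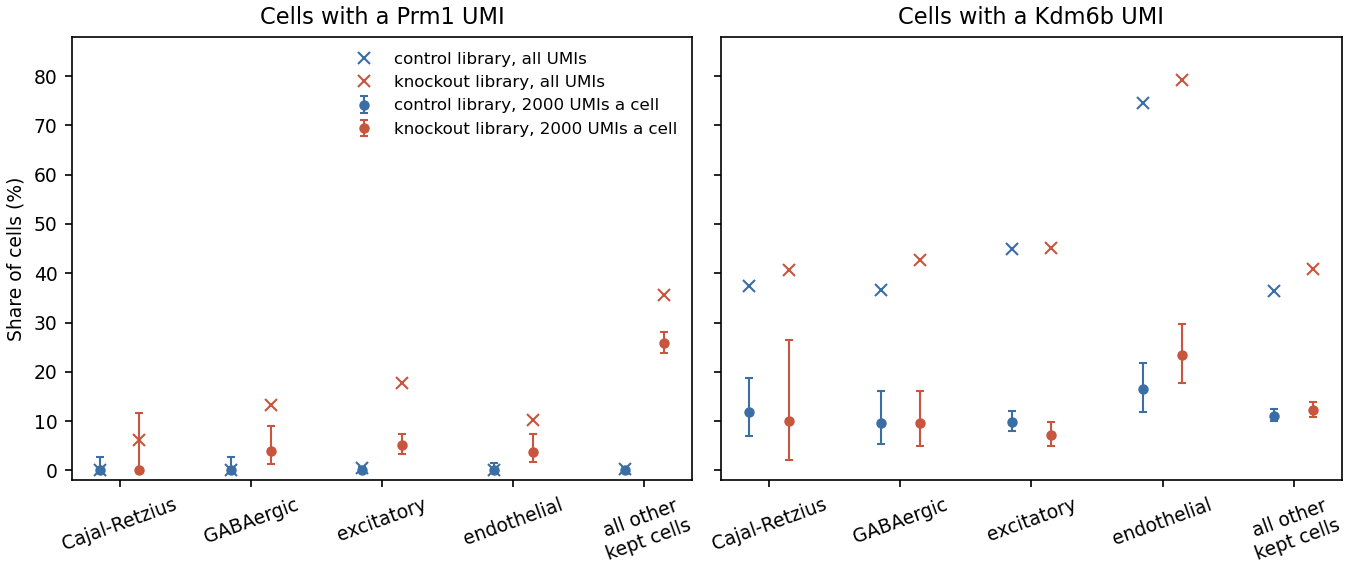
Share of cells with a UMI of Prm1 (left) and Kdm6b (right) in percent, by cell group, in the control (blue) and knockout (red) libraries; points are cells thinned to 2000 UMIs with exact 95% intervals, crosses all UMIs. Prm1 was found in 0 of 30 thinned knockout Cajal-Retzius cells and in 25.9% of all other knockout cells, and Kdm6b in 11.9% of control and 10.0% of knockout Cajal-Retzius cells.

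Within each library the members varied most in a few genes. At 2000 UMIs per cell, 529 genes were ranked by the lower of the 2 libraries' ratios of variance to mean. Malat1, a nuclear RNA, came first at 8.85 and 7.72, followed by Nnat, Actb, Tuba1a, Calb2, Snhg11, Cst3 and Fos. In the knockout library alone Actb, the cytoplasmic actin gene, stood above Malat1, at 8.67. Nnat, an imprinted gene of young neurons, ran from 0 to 24 UMIs per control cell with a median of 2. Calb2 had a ratio of 2.35 and 2.89, with 0 to 13 UMIs in both libraries and medians of 3 and 2. Reln stood lower, at 1.32 and 1.03, near the 1 that counting alone gives. Penk, outside the ranking for its low mean, had a ratio of 2.02 and 2.45 and was found in 22.4% and 6.67% of cells.

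Calb2 and Cxcl12 tended to be high in the same cells, with a Pearson correlation of log counts of 0.45 over 134 control cells and 0.40 over 30 knockout cells at equal depth. Lhx1 and Lhx5 gave 0.22 and 0.23, Zic1 and Zic4 0.26 and 0.15, and Trp73 and Gdf5 0.07 and 0.13. Cells of 1 library share animals and preparation, and the counts are sparse, so these values describe the cells of these libraries. Among control members, Calb2 was at 2268 CPM in the 44 with Xist only and 1891 in the 62 with Y-linked UMIs only, and Penk at 177 and 273.

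Markers of other cell types were lower in members than in the other cells but not equal between libraries. The 10 radial glia and astrocyte markers together were at 138 CPM in control and 59.5 in knockout members, with 0 to 12 and 0 to 4 UMIs per cell, and 1 of 10 (Gja1) at 0. The 6 red blood cell markers were at 283 and 31.2 CPM, with 192 of the control UMIs in a single cell and 2 of 6 genes at 0. The 8 endothelial markers were at 57.1 and 62.4 CPM with none at 0, the 8 oligodendrocyte lineage markers at 35.2 and 62.4 with Olig2 and Sox10 at 0, and the 8 fibroblast markers at 25.8 and 56.7 with 6 of 8 at 0. In the other cells of the control library the same lists stood at 3139, 5360, 1668, 218 and 139 CPM. In those of the knockout library they stood at 2150, 5440, 1834, 128 and 118 CPM. The gap to the members was smallest for the oligodendrocyte and fibroblast lists of the knockout library. Their part in the gene differences was not tested.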

How the data were processed

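Droplet single-cell RNA sequencing gave 1 control and 1 knockout library. The deposited matrices hold UMI counts of 31053 genes per barcode, made with Cell Ranger 3.0.2 and mm10, with Seurat 3 also named, per the submitters' processing notes. The libraries held 33517318 and 26819750 UMIs over 3555 and 2292 barcodes, and kept cells had medians of 7394 and 9411.

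UMIs were summed over members per library with Python 3.11.15, numpy 2.4.6, scipy 1.17.1 and pandas 2.3.3. Shares have exact Clopper-Pearson intervals and ratios exact conditional binomial intervals, at 95%, covering counting error only. A count of 0 was read as at most 3 counts. Scrublet in scanpy 1.11.5 called 4 and 7 doublets, too few to have worked, so no cell was removed, and removing the 73 and 31 highest scores was 1 of 18 other settings tried, beside 4 chosen after seeing the data. Scaling by TMM used edgeR 4.0.16 (R 4.3.3). The ratio and its interval were checked on simulated counts that held counting error only, as the interval assumes. That check does not cover the extra spread between cells seen for some genes, such as Penk.

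The members and the 33 gene lists were chosen with earlier results of these data known. Genes are named by rank (20 leading, 12 above, 12 below and 8 variable), as members of the lists with most UMIs, or from a short list of pathway genes. Any other gene, and the ranking without 4 cells, was chosen after its values were seen. Some genes that these rules name are not reported here. Positions are those of GENCODE vM21 (GRCm38), and promoters those of RefSeq (GRCm38.p6).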

Additional observations from a re-analysis of the deposited data

Results flagged for a closer look

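For 4 of the genes named here, the Cajal-Retzius cells and all other kept cells differed between the libraries in opposite directions, with the 4 control cells of pyramidal markers left out. No test of the difference was possible with 1 library per genotype, so it was not tested. Fam183b had a log2 ratio of knockout over control of -5.26 in Cajal-Retzius cells, fitted against 0 UMIs (at least 6.32-fold lower), and 0.28 in other cells. With 3 of the 6 rule genes taken as enough, Fam183b was at -1.75. Rgs4 stood at -0.86 and 0.29. Ndrg2 was higher in knockout Cajal-Retzius cells, at 1.93, and lower in other cells, at -0.50. Chst2, a sulfotransferase gene, stood at 1.20 and -0.36.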

How the results depend on the processing

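The lower share of Cajal-Retzius cells in the knockout library kept its direction under all 12 alternatives tried, at log2 ratios from -0.93 (Xist-only cells) to -2.14 (per fibroblast). The 308 higher and 331 lower of 5024 genes became 145 and 168 of 2879 genes in Xist-only cells. They were 70 and 120 of 1242 genes at 2000 UMIs a cell. A minimum of 20 UMIs gave 826 and 836 of 7763 genes, and a minimum of 200 gave 15 and 36 of 1549. With each cell weighted alike they were 448 and 502, and with TMM scaling 265 and 383. At 8-fold, 96 genes in place of 190 were enriched. Fewer cells, UMIs or genes enter some of these counts by construction, and otherwise the cause was not tested.

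Of the named genes' values under these alternatives, 1501 lay within the interval of the value reported, 81 outside it, and 18 turned a ratio of at least 1.5-fold to the other sign. Of the 58 named genes at least 1.5-fold apart, 24 were under 1.5-fold in at least 1 setting. Of these, 14 were so in a random draw to 2000 UMIs a cell and 8 in Xist-only cells. A further 10 values of a named gene in a setting, with at most 3 UMIs in either library, gave no ratio. Leaving out the 4 cells with pyramidal markers, or any member with 10 UMIs of another type's markers, both chosen after seeing the data, gave log2 ratios for Lpl of 0.35 and 0.62, Epha5 0.33 and 0.35, Dcx 0.15 and 0.17, and Fgf13 1.04 and 1.21. Fgf13 was at 0.17 with cells weighted alike. In a random draw of members to 2000 UMIs, Fgf13 was at 0.57, Itgb1 -0.87, C1ql1 -0.054, Fstl5 -0.50, Src -0.042, Phf1 0.28, Trp53 0.47 and Cxcr4 0.089. That draw held 30 knockout members, and its values are given without intervals. Draws differed. Kcnj5 was at 1.77 in this draw but had 0 knockout UMIs in the draw of all kept cells. Zic1 was at 0, against means of 0.269 and 0.467 UMIs per control and knockout member there. Signs from such a draw are therefore uncertain. Xist was at -0.0095 in Xist-only cells. The cause of these changes was not tested. No paired analysis was possible because each genotype had 1 library. With 32 knockout members, genes of few UMIs had wide intervals, and the spread between animals of 1 genotype and sex could not be measured.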
